A study of Mus musculus with 30 samples.

Results

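The genes examined were 31 genes of fatty acid synthesis, elongation and desaturation, triglyceride synthesis and their regulators, chosen by name and read in mouse liver on whole-genome expression arrays. All 31 had at least 1 probe set above the filter on weak signal, out of 12156 genes read on the array. The liver came from male mice aged 6 to 9 months that were dosed by gavage daily for 7 days with perfluorooctane sulfonate (PFOS, the potassium salt, a fluorinated surfactant that persists in the body) in water with Tween 20. PPARα-null (Null) mice carried the inactivated receptor gene in the strain 129S4/SvJae-Pparatm1Gonz/J, in every tissue, and wild-type (WT) mice were of the strain 129S1/SvlmJ. The substrain therefore differed together with the genotype, and effects of the 2 cannot be told apart. Each strain had 5 mice at 0 mg/kg (vehicle), 5 at 3 mg/kg and 5 at 10 mg/kg, with 1 array per mouse of RNA from the left lobe, 30 arrays in 6 groups. The question was which of these genes changed with PFOS, and whether they did so when PPARα was missing.

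Hepatocytes make fatty acids from citrate that leaves the mitochondria. The citrate is split to acetyl-CoA, carboxylated to malonyl-CoA and condensed to palmitate by fatty acid synthase with NADPH, and the product is then elongated, desaturated and joined to a glycerol backbone through lysophosphatidic acid, phosphatidic acid and diacylglycerol to give triglyceride. The transcription factors SREBP (from Srebf1), which responds to insulin and to sterols, and ChREBP (from Mlxipl), which responds to glucose, drive most of the enzymes, and PPARα, the nuclear receptor that responds to fatty acids and fibrates, is best known in the liver for fatty acid oxidation.

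Values are log2 signals after robust multichip averaging, so a difference of 1 is a fold of 2, and levels of different probe sets are not set against each other. Ppara, the targeted gene, averaged over its 3 probe sets, read 8.78 to 9.81 in the 15 Null arrays and 9.93 to 10.77 in 13 of the 15 WT arrays; where these probe sets lie relative to the inactivated part of the gene is not given in the sources used here. Replicates 4 and 5 labelled WT 0 mg/kg read 8.66 and 8.74, at the level of Null arrays. They also read 13.04 and 12.99 for Cyp2b10, a P450 that rises with many xenobiotics, against 8.11 to 8.43 in replicates 1 to 3. Of 22 probe sets that separated the Null arrays from the other 13 WT arrays by at least 0.5 on the log2 scale, both arrays lay on the Null side at all 22. These 2 arrays therefore went against their label, so the group is called the arrays labelled WT 0 mg/kg, and the members' changes against it are given with and without them. Array medians were 5.60 to 5.70.

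At 10 mg/kg, among the members that passed at an adjusted p under 0.05 in limma, Acss2, Elovl6 and Acly rose most in Null livers. In WT livers these were Scd1, Elovl6, Me1 and Fasn, with Mogat1 left aside. The estimate of Scd1 was larger in Null livers, 1.72 (SE 0.65, limma adjusted p = 0.121), but did not pass. In WT livers 11 of the 31 members were higher at 10 mg/kg than in the arrays labelled WT 0 mg/kg and 1 was lower at an adjusted p under 0.05 in limma. One of the 11, Mogat1, passed the filter on weak signal only through treated WT arrays, so it had to differ, and 10 of the other 30 were higher. Over all genes tested 7.59% were higher and 5.83% lower. The median change was 0.22 for the members and 0 for all genes. In Null livers 6 members were higher and 1 was lower at 10 mg/kg than at 0 mg/kg, against 4.11% higher and 5.02% lower of all genes, with a median change of 0.12 for the members and 0 for all genes. Of the 18 members that passed in either genotype, only Elovl6 passed in both with all arrays, and without replicates 4 and 5 labelled WT 0 mg/kg Acss2, Elovl1 and Elovl6 did, 3 of 23. Both totals include Mogat1, and the overlap over all genes was not counted. It also depends on the probe set read, since another probe set of Acss2 and of Elovl1 passed in WT livers with all arrays. By role, those that rose in WT livers were 3 of 7 genes of fatty acid synthesis, 1 of 4 desaturases, 3 of 7 elongation genes and 4 of 9 genes of triglyceride synthesis, Mogat1 among them. Those that rose in Null livers were 2 of 7 genes of fatty acid synthesis, 1 of 4 desaturases, 2 of 7 elongation genes and 1 of the 4 regulatory and glycolytic genes, while none of the 9 genes of triglyceride synthesis rose. Liver was measured whole, so fewer cells of a type and less RNA per cell cannot be told apart. Passing in one genotype and not in the other is no test of a difference between them; that test is given after the members.

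**Figure D1:**
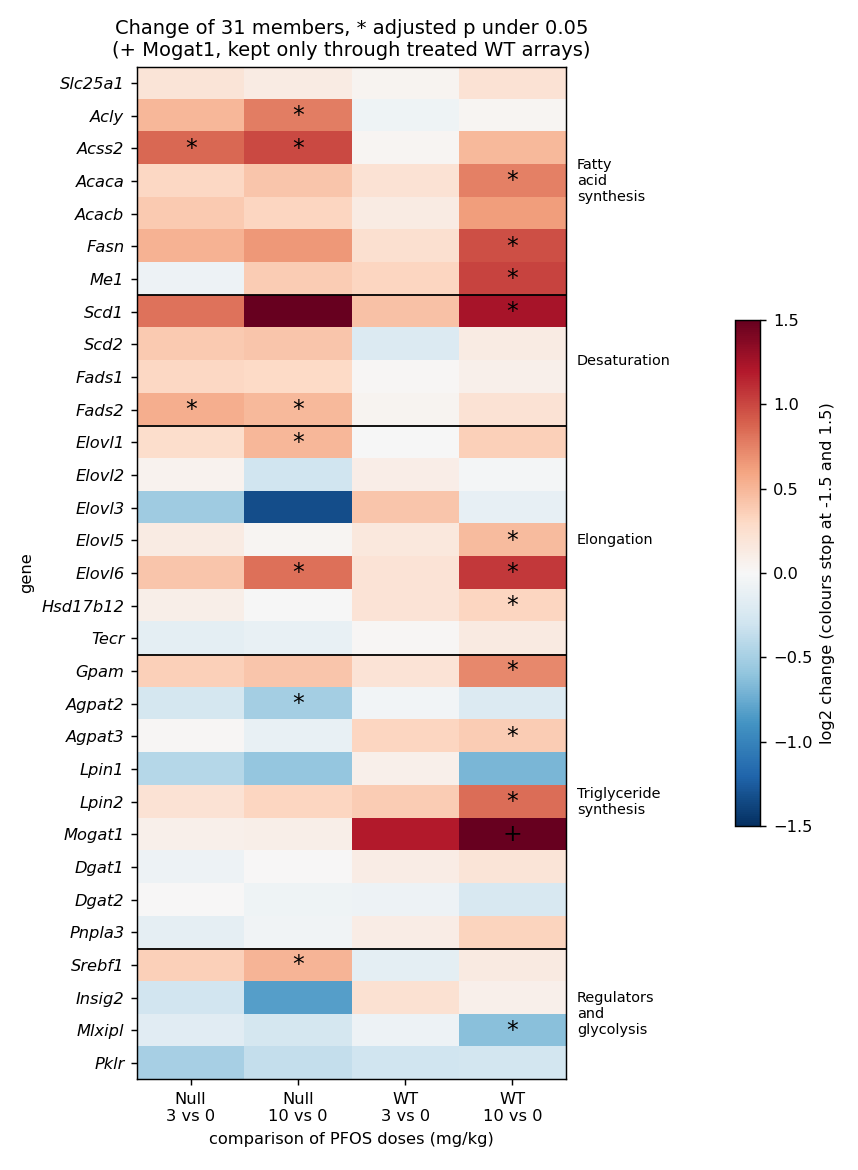
Log2 change of each of the 31 members (rows, grouped by role) in Null and WT livers at 3 and 10 mg/kg PFOS against 0 mg/kg (columns); red is higher and blue lower, colours stop at -1.5 and 1.5, and an asterisk marks an adjusted p under 0.05 in limma. Asterisks stand at 7 members in the Null 10 mg/kg column and at 11 in the WT 10 mg/kg column, where a plus sign marks Mogat1, kept only through treated WT arrays, and the WT 3 mg/kg column has none.

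Promoter sequence is shown for 4 members: Mogat1, which exceeded the filter value in treated WT arrays and in no others, Fasn, which passed in WT livers, Elovl6, which passed in both genotypes, and Acss2, which passed in Null livers and, without replicates 4 and 5 labelled WT 0 mg/kg, also in WT livers. Each line gives the 250 bases before the transcription start in RefSeq (GRCm38.p6), with the strand of the gene, read towards the gene, at chr1:78510810-78511059 (plus) for Mogat1, chr11:120824548-120824797 (minus) for Fasn, chr3:129532136-129532385 (plus) for Elovl6 and chr2:155517793-155518042 (plus) for Acss2. Capitals mark a match on either strand to the CCAAT box (CCAAT), the E-box (CACGTG), the core of the sterol response element (TCACNCCAC) or the hexamer bound by nuclear receptors (AGGTCA).
Mogat1: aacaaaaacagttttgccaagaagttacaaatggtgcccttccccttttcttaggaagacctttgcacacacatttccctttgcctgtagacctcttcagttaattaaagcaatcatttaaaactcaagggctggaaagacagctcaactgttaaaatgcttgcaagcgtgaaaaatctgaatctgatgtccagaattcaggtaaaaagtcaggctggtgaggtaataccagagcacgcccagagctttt
Fasn: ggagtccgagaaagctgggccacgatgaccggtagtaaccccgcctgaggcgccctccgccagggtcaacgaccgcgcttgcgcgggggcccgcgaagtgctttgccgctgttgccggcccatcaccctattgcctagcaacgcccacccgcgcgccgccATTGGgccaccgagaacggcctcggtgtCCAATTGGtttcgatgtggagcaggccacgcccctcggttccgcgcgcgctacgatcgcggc
Elovl6: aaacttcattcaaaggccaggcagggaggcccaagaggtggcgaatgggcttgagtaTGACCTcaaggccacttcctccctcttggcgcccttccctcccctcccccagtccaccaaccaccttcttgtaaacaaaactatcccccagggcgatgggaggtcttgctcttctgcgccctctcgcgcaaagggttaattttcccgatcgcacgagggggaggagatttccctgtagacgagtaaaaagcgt
Acss2: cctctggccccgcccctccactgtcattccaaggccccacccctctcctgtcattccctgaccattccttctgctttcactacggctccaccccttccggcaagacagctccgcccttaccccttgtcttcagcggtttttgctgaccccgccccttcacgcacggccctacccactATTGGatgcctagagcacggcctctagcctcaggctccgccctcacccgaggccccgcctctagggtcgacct
Fasn held the CCAAT box 3 times, 2 of which overlap on opposite strands, Acss2 held it once, Elovl6 held the nuclear receptor hexamer once, and the Mogat1 window held none of the motifs. Windows were found for 25 of the 31 members. A CCAAT box stood in the windows of 16 of these 25 members (37.5% of all genes with a window), an E-box in those of 4 (6.86%), the hexamer in those of 6 (15.8%) and the sterol response element core in that of Mlxipl alone (1.22%). The direct repeat of 2 hexamers 1 base apart (AGGTCANAGGTCA) was in none of the 25 and in 0.0407% of all genes. Of all windows, counted singly, 33.8% held the CCAAT box, 6.02% the E-box, 14.0% the hexamer, 1.05% the sterol response element core and 0.0335% the repeat. A match is a run of letters, not a measured site, and a window without one says nothing of more distant sequence.

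Among the genes that supply acetyl-CoA, Acss2 and Acly rose in Null livers. Acss2, which makes acetyl-CoA from acetate, read 11.32, 10.86, 10.90, 11.03 and 10.78 at 0 mg/kg, 11.75, 11.79, 11.92, 11.72 and 12.04 at 3 mg/kg, and 12.32, 12.27, 11.58, 11.48 and 12.19 at 10 mg/kg in Null livers. Acss2 in WT livers read 11.43, 10.48, 11.51, 12.26 and 12.43 in the arrays labelled 0 mg/kg, 11.36, 11.05, 11.96, 11.99 and 11.90 at 3 mg/kg, and 12.13, 12.05, 11.96, 12.17 and 12.25 at 10 mg/kg. All 10 treated Null arrays lay above every Null array at 0 mg/kg, while in WT livers replicates 4 and 5 labelled 0 mg/kg were the highest of the 15 arrays. The change in Null livers was 0.87 (SE 0.16, adjusted p = 0.00751) at 3 mg/kg and 0.99 (SE 0.16, adjusted p = 0.00226) at 10 mg/kg, a fold of 1.82 and of 1.99. In WT livers the change at 10 mg/kg was 0.49 (SE 0.29, adjusted p = 0.28), and 0.97 (SE 0.24, adjusted p = 0.00966) without replicates 4 and 5, where it passed. With all arrays, another of its 3 probe sets passed in WT livers.

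Acly, ATP citrate lyase, which splits cytosolic citrate, read 9.30, 9.64, 9.62, 9.29 and 9.54 at 0 mg/kg, 9.82, 9.92, 10.09, 10.21 and 9.85 at 3 mg/kg, and 10.72, 10.15, 9.70, 10.34 and 10.33 at 10 mg/kg in Null livers. Acly in WT livers read 9.65, 9.41, 9.88, 10.26 and 10.17 in the arrays labelled 0 mg/kg, 9.73, 9.54, 9.86, 9.91 and 10.02 at 3 mg/kg, and 10.00, 9.69, 10.03, 9.89 and 9.88 at 10 mg/kg. The treated Null arrays all lay above the Null arrays at 0 mg/kg, and the WT groups overlapped, with replicates 4 and 5 labelled 0 mg/kg again the highest of the 15. The change in Null livers was 0.77 (SE 0.15, adjusted p = 0.00669) at 10 mg/kg and 0.50 (SE 0.15, adjusted p = 0.0704) at 3 mg/kg, and in WT livers it was 0.024 (SE 0.14, adjusted p = 0.937) at 10 mg/kg and 0.25 (SE 0.12, adjusted p = 0.145) without the 2 arrays. Slc25a1, the mitochondrial citrate carrier upstream of Acly, passed in neither genotype with all arrays. It averaged 11.79 ± 0.21 at 10 mg/kg and 11.67 ± 0.036 at 0 mg/kg in Null livers, and 11.92 ± 0.058 at 10 mg/kg and 11.70 ± 0.23 in those labelled 0 mg/kg in WT livers (log2, SD, n = 5 each). Without replicates 4 and 5 its WT change was 0.37 (SE 0.081, adjusted p = 0.00534).

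Acaca, Fasn and Me1, of the step from acetyl-CoA to fatty acid, rose at 10 mg/kg in WT livers. Acaca, the cytosolic acetyl-CoA carboxylase that forms the malonyl-CoA used for synthesis, read 8.93, 9.03, 9.11, 8.91 and 8.95 at 0 mg/kg, 9.26, 9.31, 9.47, 9.30 and 9.17 at 3 mg/kg, and 9.71, 9.66, 9.04, 8.98 and 9.59 at 10 mg/kg in Null livers. Acaca in WT livers read 9.12, 8.99, 9.11, 9.45 and 9.38 in the arrays labelled 0 mg/kg, 9.48, 9.35, 9.53, 9.36 and 9.41 at 3 mg/kg, and 9.94, 10.10, 9.95, 9.86 and 9.95 at 10 mg/kg. The 5 WT arrays at 10 mg/kg were above the other 10 WT arrays, whereas at 10 mg/kg in Null livers replicates 1, 2 and 5 stood above the controls and replicates 3 and 4 fell within them. The WT change at 10 mg/kg was 0.75 (SE 0.085, adjusted p = 5.2e-05), a fold of 1.69, and 0.89 (SE 0.073, adjusted p = 3.05e-06) without replicates 4 and 5 labelled WT 0 mg/kg. In Null livers the change was 0.41 (SE 0.13, adjusted p = 0.0668). Acacb, the carboxylase of the mitochondrial outer membrane whose product restrains fatty acid import for oxidation, passed in neither with all arrays. Its arrays labelled WT 0 mg/kg spread over 6.67 to 9.27, with replicates 4 and 5 the highest, and its WT change at 10 mg/kg was 0.63 (SE 0.41, adjusted p = 0.342) with them and 1.28 (SE 0.36, adjusted p = 0.0206) without them.

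Fasn, fatty acid synthase, read 9.31, 9.69, 9.80, 9.80 and 9.75 at 0 mg/kg, 10.25, 10.32, 10.75, 9.98 and 9.68 at 3 mg/kg, and 10.74, 10.78, 9.69, 9.97 and 10.44 at 10 mg/kg in Null livers. Fasn in WT livers read 10.00, 9.73, 10.15, 10.20 and 10.34 in the arrays labelled 0 mg/kg, 10.50, 9.85, 10.54, 10.29 and 10.42 at 3 mg/kg, and 11.05, 11.07, 10.96, 10.98 and 11.18 at 10 mg/kg. In WT livers the 10 mg/kg arrays, 10.96 to 11.18, lay above all others, and in Null livers 4 of 5 arrays at 10 mg/kg lay above the controls. The WT change was 0.96 (SE 0.13, adjusted p = 0.000244), a fold of 1.95, and 1.08 (SE 0.14, adjusted p = 0.000151) without replicates 4 and 5. In Null livers it was 0.65 (SE 0.21, adjusted p = 0.0742), which did not pass.

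Me1, malic enzyme, a source of the NADPH that fatty acid synthase consumes, read 10.46, 11.44, 11.13, 11.27 and 11.02 at 0 mg/kg, 11.09, 11.12, 11.38, 10.40 and 10.97 at 3 mg/kg, and 11.87, 11.87, 10.91, 10.56 and 12.02 at 10 mg/kg in Null livers. Me1 in WT livers read 11.74, 11.50, 11.44, 11.76 and 12.05 in the arrays labelled 0 mg/kg, 11.75, 12.09, 12.25, 12.23 and 11.77 at 3 mg/kg, and 12.72, 12.71, 12.66, 12.77 and 12.69 at 10 mg/kg. The 5 WT arrays at 10 mg/kg spanned 12.66 to 12.77, above all other WT arrays, while the Null arrays at 10 mg/kg divided, with replicates 3 and 4 within the control range and replicates 1, 2 and 5 above it. The WT change was 1.02 (SE 0.12, adjusted p = 7.61e-05), a fold of 2.02, and 1.15 (SE 0.12, adjusted p = 2.77e-05) without the 2 arrays, and the Null change was 0.38 (SE 0.27, adjusted p = 0.437).

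**Figure D2:**
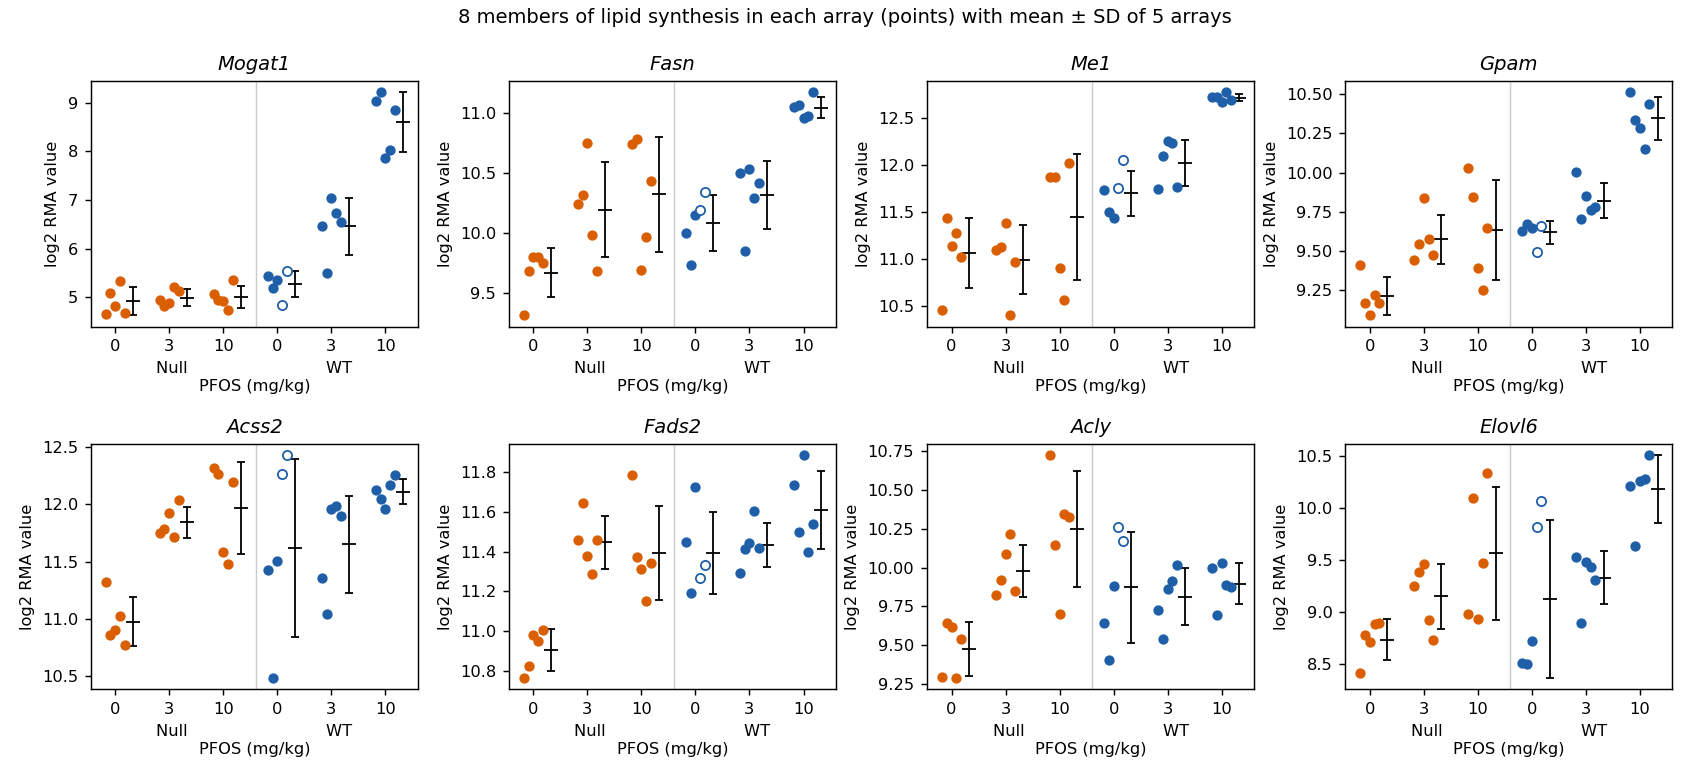
Log2 value of 8 members in each of the 30 arrays (points), by genotype (Null left, WT right) and PFOS dose, with the mean and SD of 5 arrays as black bars; open circles are replicates 4 and 5 labelled WT 0 mg/kg. Mogat1 stays between 4.66 and 5.36 in all Null arrays and reaches 9.21 in WT livers, while Acss2, Fads2 and Acly stand above their controls in every treated Null array.

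Desaturases insert double bonds into fatty acids. Scd1, the main stearoyl-CoA desaturase of liver, which makes monounsaturated fatty acids, read 10.65, 9.44, 9.07, 10.75 and 7.78 at 0 mg/kg, 9.91, 10.20, 11.04, 9.93 and 10.67 at 3 mg/kg, and 12.74, 12.08, 9.70, 9.43 and 12.37 at 10 mg/kg in Null livers. Scd1 in WT livers read 12.21, 10.48, 11.70, 12.46 and 12.50 in the arrays labelled 0 mg/kg, 11.91, 12.26, 12.62, 12.35 and 12.39 at 3 mg/kg, and 13.32, 12.98, 13.15, 12.98 and 13.10 at 10 mg/kg. The WT arrays at 10 mg/kg, 12.98 to 13.32, lay above the other 10 WT arrays, of which replicate 2 at 0 mg/kg was lowest, and Null arrays at 10 mg/kg ranged from 9.43 to 12.74 with replicates 3 and 4 low. The WT change was 1.24 (SE 0.29, adjusted p = 0.0152), a fold of 2.36, and 1.64 (SE 0.27, adjusted p = 0.000953) without replicates 4 and 5. In Null livers the estimate was 1.72 (SE 0.65, adjusted p = 0.121), and did not pass.

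Fads2, the desaturase of the first step from essential to long polyunsaturated fatty acids, read 10.76, 10.83, 10.98, 10.95 and 11.00 at 0 mg/kg, 11.46, 11.65, 11.38, 11.29 and 11.46 at 3 mg/kg, and 11.79, 11.37, 11.31, 11.15 and 11.34 at 10 mg/kg in Null livers. Fads2 in WT livers read 11.45, 11.19, 11.73, 11.27 and 11.33 in the arrays labelled 0 mg/kg, 11.29, 11.41, 11.45, 11.60 and 11.42 at 3 mg/kg, and 11.73, 11.50, 11.89, 11.40 and 11.54 at 10 mg/kg. The Null controls, 10.76 to 11.00, were below all 25 other arrays, and the WT dose groups overlapped. The change in Null livers was 0.54 (SE 0.10, adjusted p = 0.00991) at 3 mg/kg and 0.49 (SE 0.10, adjusted p = 0.0107) at 10 mg/kg, a fold of 1.46 and of 1.40, and in WT livers it was 0.22 (SE 0.11, adjusted p = 0.193) at 10 mg/kg and 0.16 (SE 0.13, adjusted p = 0.395) without replicates 4 and 5. Fads1, the next desaturase of the same route, and Scd2, a stearoyl-CoA desaturase found mainly outside the liver, passed in no dose comparison. In Null livers at 10 mg/kg they changed by 0.30 (SE 0.10, adjusted p = 0.0905) and 0.41 (SE 0.15, adjusted p = 0.105), and in WT livers by 0.073 (SE 0.076, adjusted p = 0.572) and 0.12 (SE 0.11, adjusted p = 0.528). Without the 2 arrays these were 0.14 (SE 0.084, adjusted p = 0.23) and 0.20 (SE 0.13, adjusted p = 0.288).

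Elongases add carbon units at the endoplasmic reticulum. Elovl6, which extends long saturated and monounsaturated chains such as palmitate, read 8.41, 8.78, 8.71, 8.88 and 8.90 at 0 mg/kg, 9.25, 9.39, 9.46, 8.92 and 8.73 at 3 mg/kg, and 8.98, 10.10, 8.93, 9.47 and 10.33 at 10 mg/kg in Null livers. Elovl6 in WT livers read 8.51, 8.50, 8.72, 9.82 and 10.07 in the arrays labelled 0 mg/kg, 9.53, 8.90, 9.48, 9.43 and 9.31 at 3 mg/kg, and 10.22, 9.64, 10.26, 10.28 and 10.51 at 10 mg/kg. Null arrays at 10 mg/kg all lay above the controls, 2 of them by little, and in WT livers the 10 mg/kg arrays overlapped only with replicates 4 and 5 labelled 0 mg/kg, which stood well above replicates 1 to 3. The change at 10 mg/kg was 0.83 (SE 0.24, adjusted p = 0.0448) in Null livers, a fold of 1.78, and 1.06 (SE 0.28, adjusted p = 0.0274) in WT livers, a fold of 2.08. Without the 2 arrays the WT change was 1.60 (SE 0.17, adjusted p = 4.24e-05). The call in Null livers was lost with 10 of the 15 arrays of that strain left out 1 at a time, the highest adjusted p being 0.104, and the call in WT livers with 5 of 15, the highest being 0.0768.

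Elovl1, an elongase of saturated very long chains, read 9.78, 9.72, 9.85, 9.63 and 9.76 at 0 mg/kg, 9.97, 10.02, 10.01, 10.06 and 10.01 at 3 mg/kg, and 10.43, 10.34, 10.00, 10.26 and 10.20 at 10 mg/kg in Null livers. Elovl1 in WT livers read 9.74, 9.53, 9.84, 10.24 and 10.31 in the arrays labelled 0 mg/kg, 10.10, 9.80, 9.86, 9.89 and 9.95 at 3 mg/kg, and 10.37, 10.45, 10.15, 10.13 and 10.34 at 10 mg/kg. Both treated Null groups lay above the Null controls, and in WT livers the 10 mg/kg arrays overlapped with replicates 4 and 5 labelled 0 mg/kg alone. The change at 10 mg/kg was 0.50 (SE 0.076, adjusted p = 0.00173) in Null livers and 0.36 (SE 0.13, adjusted p = 0.0843) in WT livers, and 0.58 (SE 0.099, adjusted p = 0.00106) in WT livers without the 2 arrays. Another of its 3 probe sets passed in WT livers with all arrays.

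Elovl5, an elongase of polyunsaturated chains, read 12.88, 12.90, 12.93, 12.86 and 12.63 at 0 mg/kg, 13.12, 13.13, 12.89, 12.76 and 12.92 at 3 mg/kg, and 12.86, 12.92, 12.72, 12.74 and 13.09 at 10 mg/kg in Null livers. Elovl5 in WT livers read 12.84, 12.93, 12.93, 13.03 and 13.10 in the arrays labelled 0 mg/kg, 12.98, 12.74, 13.36, 13.34 and 13.17 at 3 mg/kg, and 13.41, 13.39, 13.47, 13.53 and 13.39 at 10 mg/kg. The WT arrays at 10 mg/kg, 13.39 to 13.53, lay above all other WT arrays, and the Null groups overlapped. The change was 0.03 (SE 0.093, adjusted p = 0.886) in Null livers and 0.47 (SE 0.10, adjusted p = 0.0098) in WT livers, and 0.54 (SE 0.12, adjusted p = 0.00507) without replicates 4 and 5. Hsd17b12, the ketoacyl-CoA reductase of the elongation cycle, averaged 11.61 ± 0.14 at 10 mg/kg and 11.61 ± 0.062 at 0 mg/kg in Null livers. In WT livers it averaged 11.90 ± 0.035 at 10 mg/kg and 11.58 ± 0.20 in those labelled 0 mg/kg, without overlap (log2, SD, n = 5 each). Its WT change was 0.33 (SE 0.083, adjusted p = 0.0233), and 0.47 (SE 0.065, adjusted p = 0.000294) without the 2 arrays. It did not pass with any of 6 single WT arrays left out, the highest adjusted p being 0.0664.

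The remaining elongation genes passed in no dose comparison. Tecr, the enoyl-CoA reductase that closes the elongation cycle, changed by -0.11 (SE 0.10, adjusted p = 0.572) in Null livers and 0.13 (SE 0.06, adjusted p = 0.158) in WT livers at 10 mg/kg, and 0.18 (SE 0.068, adjusted p = 0.0672) in WT livers without replicates 4 and 5. Elovl2, an elongase of the longest polyunsaturated chains, changed by -0.30 (SE 0.13, adjusted p = 0.181) and -0.035 (SE 0.11, adjusted p = 0.881), in the same order, and by -0.14 (SE 0.12, adjusted p = 0.464) in WT livers without the 2 arrays. Elovl3 had the lowest estimate of all members in Null livers, -1.33 (SE 0.48, adjusted p = 0.108), where replicate 4 at 10 mg/kg read 7.87 against 10.50 to 10.68 in the other 4 arrays of that group. In WT livers it changed by -0.12 (SE 0.32, adjusted p = 0.848), and by -0.47 (SE 0.34, adjusted p = 0.351) without replicates 4 and 5.

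Of the genes of triglyceride assembly, Agpat2 fell in Null livers and Gpam, Agpat3 and Lpin2 rose in WT livers, where Mogat1 came above background. Mogat1, monoacylglycerol acyltransferase, which makes diacylglycerol from monoacylglycerol and is low in normal mouse liver, read 4.66, 5.09, 4.83, 5.33 and 4.67 at 0 mg/kg, 4.94, 4.81, 4.87, 5.21 and 5.13 at 3 mg/kg, and 5.07, 4.94, 4.93, 4.74 and 5.36 at 10 mg/kg in Null livers. Mogat1 in WT livers read 5.44, 5.18, 5.34, 4.84 and 5.53 in the arrays labelled 0 mg/kg, 6.46, 5.49, 7.05, 6.74 and 6.54 at 3 mg/kg, and 9.04, 9.21, 7.86, 8.02 and 8.86 at 10 mg/kg. All 15 Null arrays lay below the filter value of 5.65, as did all 5 arrays labelled WT 0 mg/kg, so these values are near background. The probe set passed the filter only through 9 treated WT arrays, of which the 10 mg/kg group lay above the 3 mg/kg group, and 4 of 5 arrays at 3 mg/kg lay above the controls. Because a probe set kept in this way had to differ, its values are a description with no test. With the filter value as a floor, WT livers at 10 mg/kg (mean 8.60, n = 5) were at least 7.71-fold above both Null livers at 10 mg/kg (measured mean 5.01) and the arrays labelled WT 0 mg/kg (measured mean 5.27). The floor is the median of all values and not a measured detection limit. WT livers at 3 mg/kg averaged 6.45 ± 0.58 (log2, SD, n = 5), and no change is given for Null livers, where both groups lay under the floor.

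Gpam, the mitochondrial glycerol-3-phosphate acyltransferase that starts the route, read 9.41, 9.17, 9.09, 9.22 and 9.17 at 0 mg/kg, 9.45, 9.54, 9.84, 9.58 and 9.47 at 3 mg/kg, and 10.03, 9.84, 9.39, 9.25 and 9.65 at 10 mg/kg in Null livers. Gpam in WT livers read 9.63, 9.67, 9.65, 9.49 and 9.66 in the arrays labelled 0 mg/kg, 10.00, 9.71, 9.85, 9.76 and 9.78 at 3 mg/kg, and 10.51, 10.33, 10.29, 10.15 and 10.44 at 10 mg/kg. The 3 WT dose groups did not overlap, and in Null livers the 3 mg/kg group lay above the controls while replicates 3 and 4 at 10 mg/kg fell within them. The WT change at 10 mg/kg was 0.72 (SE 0.076, adjusted p = 3.07e-05), a fold of 1.65, and 0.69 (SE 0.088, adjusted p = 0.000144) without replicates 4 and 5. The Null change was 0.42 (SE 0.13, adjusted p = 0.0562) at 10 mg/kg and 0.36 (SE 0.13, adjusted p = 0.13) at 3 mg/kg.

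Acyltransferases of the next step, from lysophosphatidic to phosphatidic acid, included Agpat3 and Agpat2. Agpat3 read 10.65, 10.72, 10.66, 10.64 and 10.76 at 0 mg/kg, 10.52, 10.65, 10.62, 10.88 and 10.83 at 3 mg/kg, and 10.54, 10.58, 10.57, 10.82 and 10.34 at 10 mg/kg in Null livers. Agpat3 in WT livers read 10.65, 10.64, 10.54, 10.48 and 10.45 in the arrays labelled 0 mg/kg, 10.92, 10.87, 10.87, 10.85 and 10.88 at 3 mg/kg, and 10.95, 11.10, 11.00, 10.73 and 10.87 at 10 mg/kg. All 10 treated WT arrays lay above the arrays labelled WT 0 mg/kg, with the 2 doses overlapping, and the Null groups overlapped. The WT change was 0.38 (SE 0.07, adjusted p = 0.00378) at 10 mg/kg and 0.33 (SE 0.07, adjusted p = 0.101) at 3 mg/kg, and without replicates 4 and 5 0.32 (SE 0.079, adjusted p = 0.01) at 10 mg/kg and 0.27 (SE 0.079, adjusted p = 0.189) at 3 mg/kg. The Null change was -0.12 (SE 0.089, adjusted p = 0.473) at 10 mg/kg.

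Agpat2, an isoform whose loss in humans and mice causes a lack of adipose tissue, read 11.67, 11.86, 11.86, 11.46 and 11.52 at 0 mg/kg, 11.13, 11.31, 11.50, 11.69 and 11.40 at 3 mg/kg, and 11.04, 11.49, 11.11, 11.27 and 10.89 at 10 mg/kg in Null livers. Agpat2 in WT livers read 11.27, 11.62, 11.68, 11.17 and 11.06 in the arrays labelled 0 mg/kg, 11.55, 10.84, 11.44, 11.45 and 11.34 at 3 mg/kg, and 11.04, 11.22, 11.25, 11.11 and 11.17 at 10 mg/kg. Null arrays at 10 mg/kg overlapped with the controls by 1 array of each group. The Null change was -0.51 (SE 0.12, adjusted p = 0.0207), the only fall in Null livers to pass, and the WT change was -0.21 (SE 0.14, adjusted p = 0.341), and -0.37 (SE 0.14, adjusted p = 0.0675) without replicates 4 and 5. The Null call was lost without replicate 2 or 3 at 0 mg/kg or replicate 5 at 10 mg/kg, the highest adjusted p being 0.0575.

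Lipins remove the phosphate from phosphatidic acid. Lpin2 read 9.92, 9.69, 9.32, 9.27 and 9.35 at 0 mg/kg, 9.75, 9.88, 10.02, 9.31 and 9.68 at 3 mg/kg, and 10.27, 10.06, 9.73, 9.39 and 9.72 at 10 mg/kg in Null livers. Lpin2 in WT livers read 9.99, 9.28, 9.16, 9.70 and 9.61 in the arrays labelled 0 mg/kg, 9.84, 10.34, 9.94, 9.83 and 9.73 at 3 mg/kg, and 10.53, 10.36, 10.49, 10.08 and 10.48 at 10 mg/kg. WT arrays at 10 mg/kg lay above those labelled 0 mg/kg and overlapped with those at 3 mg/kg, and the Null groups overlapped. The WT change was 0.84 (SE 0.15, adjusted p = 0.00308), a fold of 1.79, 0.91 (SE 0.18, adjusted p = 0.00261) without replicates 4 and 5, and the Null change was 0.32 (SE 0.17, adjusted p = 0.28). Lpin1, which also acts as a coactivator of PPARα, ranged over 9.96 to 11.82 in the arrays labelled WT 0 mg/kg and 8.92 to 11.38 in Null livers at 3 mg/kg, and passed in neither genotype. Its change at 10 mg/kg was -0.58 (SE 0.50, adjusted p = 0.535) in Null livers and -0.69 (SE 0.29, adjusted p = 0.134) in WT livers, and -1.17 (SE 0.25, adjusted p = 0.00404) in WT livers without the 2 arrays, where it was lower and passed.

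The last step, from diacylglycerol to triglyceride, is carried out by Dgat1 and Dgat2. Neither passed at any dose with all arrays. At 10 mg/kg Dgat1 changed by 0.012 (SE 0.079, adjusted p = 0.949) in Null livers and 0.19 (SE 0.078, adjusted p = 0.116) in WT livers, 0.17 (SE 0.093, adjusted p = 0.206) without replicates 4 and 5. Dgat2 changed by -0.068 (SE 0.076, adjusted p = 0.651) and -0.24 (SE 0.12, adjusted p = 0.195), in the same order, and by -0.40 (SE 0.11, adjusted p = 0.0201) in WT livers without replicates 4 and 5, where it was lower and passed. Pnpla3, a lipid droplet protein that follows feeding, was above the filter value in 13 of 30 arrays and is read near background. Its change at 10 mg/kg was -0.054 (SE 0.13, adjusted p = 0.852) in Null livers and 0.34 (SE 0.11, adjusted p = 0.0555) in WT livers, 0.43 (SE 0.12, adjusted p = 0.0158) without the 2 arrays.

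Of the regulators, Srebf1, the gene of the SREBP that drives fatty acid synthesis, read 9.73, 10.17, 10.17, 9.96 and 10.19 at 0 mg/kg, 10.30, 10.40, 10.48, 10.47 and 10.36 at 3 mg/kg, and 10.79, 10.70, 10.46, 10.10 and 10.73 at 10 mg/kg in Null livers. Srebf1 in WT livers read 10.53, 10.71, 10.56, 10.25 and 10.74 in the arrays labelled 0 mg/kg, 10.36, 10.38, 10.36, 10.49 and 10.45 at 3 mg/kg, and 10.77, 10.63, 10.77, 10.50 and 10.76 at 10 mg/kg. Null arrays at 3 mg/kg lay above the Null controls, as did 4 of the 5 at 10 mg/kg, and the WT groups overlapped. The Null change was 0.51 (SE 0.12, adjusted p = 0.0197) at 10 mg/kg and 0.36 (SE 0.12, adjusted p = 0.114) at 3 mg/kg, and the WT change at 10 mg/kg was 0.13 (SE 0.088, adjusted p = 0.358), 0.087 (SE 0.079, adjusted p = 0.456) without replicates 4 and 5. The Null call at 10 mg/kg was lost without replicate 4 at 0 mg/kg or replicate 5 at 10 mg/kg, the highest adjusted p being 0.0519. Mlxipl, the gene of ChREBP, was the only member to fall in WT livers with all arrays. It averaged 11.15 ± 0.22 at 10 mg/kg and 11.41 ± 0.15 at 0 mg/kg in Null livers, and 10.89 ± 0.37 at 10 mg/kg and 11.52 ± 0.41 in those labelled 0 mg/kg in WT livers (log2, SD, n = 5 each). Its WT change was -0.62 (SE 0.18, adjusted p = 0.0432), -0.89 (SE 0.17, adjusted p = 0.00228) without replicates 4 and 5, and with each WT array left out in turn the call was lost in 11 of 15 cases, the highest adjusted p being 0.111. Insig2, which holds SREBP in the endoplasmic reticulum, changed by -0.82 (SE 0.29, adjusted p = 0.0932) in Null livers and 0.074 (SE 0.20, adjusted p = 0.846) in WT livers at 10 mg/kg, 0.065 (SE 0.24, adjusted p = 0.873) without the 2 arrays. Pklr, the liver pyruvate kinase and a known ChREBP target, changed by -0.36 (SE 0.15, adjusted p = 0.178) and -0.27 (SE 0.14, adjusted p = 0.204), in the same order, -0.21 (SE 0.16, adjusted p = 0.375) in WT livers without the 2 arrays, and 1 of its 3 probe sets passed as lower in WT livers.

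At 3 mg/kg fewer members passed. In WT livers none of the 31 did in limma (0.239% higher and 0.00823% lower over all genes). The median change was 0.11 for the members and 0 for all genes. Without replicates 4 and 5 labelled WT 0 mg/kg, Acaca (0.36 (SE 0.073, adjusted p = 0.0416)) and Hsd17b12 (0.35 (SE 0.065, adjusted p = 0.0262)) passed, against 0.765% higher and 0.263% lower over all genes. In Null livers 2 members, Fads2 and Acss2, were higher and none was lower (2.08% higher and 3.18% lower over all genes), and the median change was 0.13 against 0. The arrays of 9 members lay wholly above their controls in Null livers at 3 mg/kg (4.38% of all genes), namely Acly, Acaca, Acss2, Slc25a1, Fads1, Fads2, Elovl1, Gpam and Srebf1, and those of 5 did at 10 mg/kg (4.06%). The comparisons of 3 and 10 mg/kg share their controls.

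Between the doses, 5 members were higher at 10 than at 3 mg/kg in WT livers and none was lower (3.83% higher and 3.18% lower over all genes). These were Acaca, 0.54 (SE 0.085, adjusted p = 0.0037), Fasn, 0.73 (SE 0.13, adjusted p = 0.0065), Me1, 0.69 (SE 0.12, adjusted p = 0.00576), Gpam, 0.52 (SE 0.076, adjusted p = 0.0021), and Mogat1, which was kept only through these groups, so that 4 of the other 30 passed. With replicates 4 and 5 labelled WT 0 mg/kg left out of that fit, which then takes its spread from 13 arrays, 9 were higher (8 of the other 30 without Mogat1) and 2 lower (7.47% and 7.07% of all genes), Scd1, Elovl1, Elovl6 and Srebf1 being added as higher and Mlxipl and Lpin1 as lower. In Null livers none of the 31 members, and 0% of all genes, passed between 10 and 3 mg/kg in limma. The median difference between the doses was 0.18 for the members in WT livers and 0.02 in Null livers, against 0.01 for all genes in each.

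The response to 10 mg/kg, Null minus WT, was tested as an interaction over all 30 arrays. Of the 30 members other than Mogat1, whose difference the filter fixed, the response of 1 was lower in Null livers, that of Agpat3, -0.50 (SE 0.11, adjusted p = 0.0136), and none was higher (2.97% lower and 0.707% higher over all genes). Elovl5 gave -0.44 (SE 0.14, adjusted p = 0.0744), while its other probe set passed, -0.47 (SE 0.13, adjusted p = 0.0477). The other probe sets of Agpat3 gave -0.56 (adjusted p = 0.0357), -0.54 (adjusted p = 0.0782) and -0.47 (adjusted p = 0.07). The call of Agpat3 held without replicates 4 and 5 labelled WT 0 mg/kg, -0.44 (SE 0.12, adjusted p = 0.0372). Hsd17b12 also passed then, -0.47 (SE 0.097, adjusted p = 0.00941), against -0.33 (SE 0.11, adjusted p = 0.0996) with all arrays. The difference was numerically above 0 for Acly, 0.75 (SE 0.21, adjusted p = 0.0509), with a 95% interval of 0.31 to 1.18, just short of the threshold, and without the 2 arrays it was 0.52 (SE 0.21, adjusted p = 0.155). For Acss2 it was 0.50 (SE 0.35, adjusted p = 0.509), with an interval of -0.20 to 1.21, and 0.019 (SE 0.29, adjusted p = 0.983) without them. Fasn gave -0.31 (SE 0.26, adjusted p = 0.61) with an interval of -0.84 to 0.22, and Elovl6 -0.23 (SE 0.39, adjusted p = 0.84) with an interval of -1.02 to 0.57. Without the 2 arrays Fasn gave -0.43 (SE 0.28, adjusted p = 0.432) with an interval of -1.01 to 0.15, and Elovl6 -0.77 (SE 0.33, adjusted p = 0.183) with an interval of -1.44 to -0.10, which leaves out 0, although its adjusted p did not pass. The median difference was -0.24 for the members and 0.01 for all genes. Without the 2 arrays, 3.66% of all genes were lower and 1.57% higher. At 3 mg/kg no member passed (0.962% lower and 0.230% higher over all genes), and none passed without the 2 arrays (0.189% and 0.0247%).

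**Figure D3:**
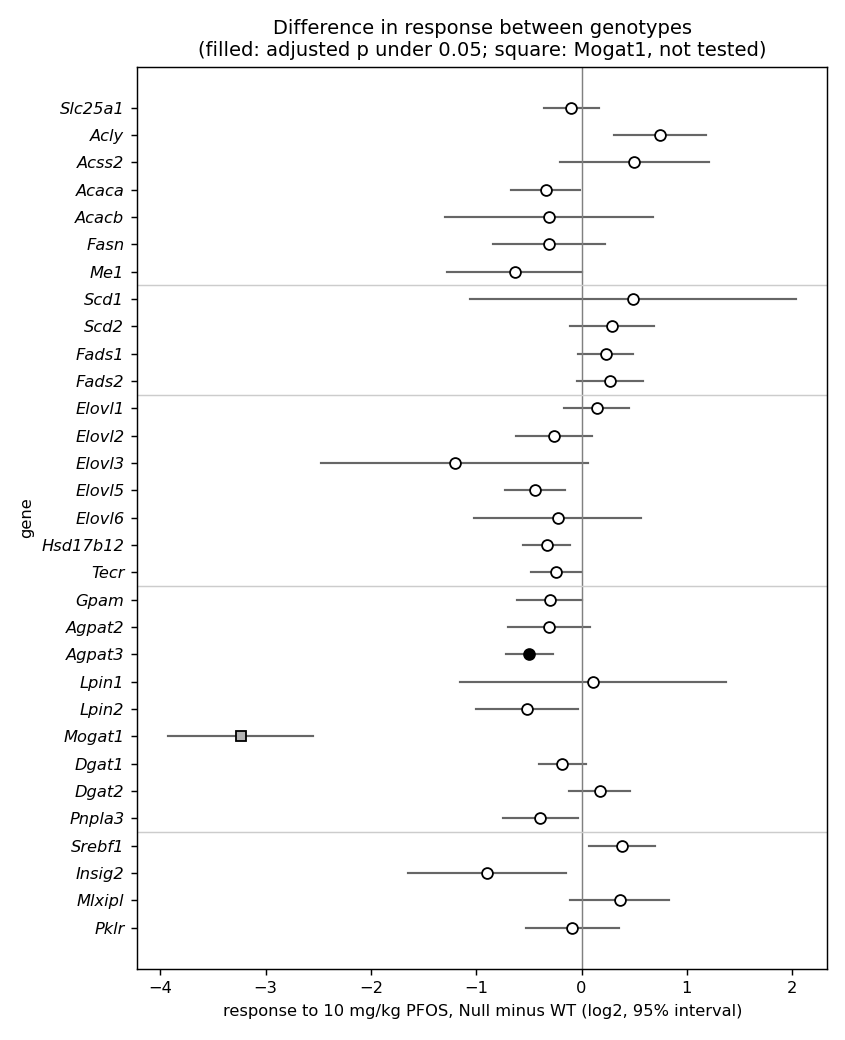
Difference in the response to 10 mg/kg PFOS, Null minus WT, for each of the 31 members (rows, in the order of their roles) on the log2 scale, with its 95% interval from the limma fit of 30 arrays; filled points have an adjusted p under 0.05. Mogat1 (grey square, not tested because it was kept only through treated WT arrays) stands far to the left, Agpat3 (-0.50) is the filled point, and the intervals of Scd1, Elovl3 and Lpin1 are the widest.

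In control livers, 3 members were lower in Null than in the arrays labelled WT 0 mg/kg and none was higher (0.658% lower and 0.888% higher over all genes). Fads2 averaged 10.90 ± 0.10 in Null and 11.39 ± 0.21 in WT controls, and Srebf1 10.04 ± 0.20 in Null and 10.56 ± 0.20 in WT controls (log2, SD, n = 5 each), with no overlap for either. The differences were -0.49 (SE 0.11, adjusted p = 0.0226) and -0.52 (SE 0.11, adjusted p = 0.0178), and -0.55 (SE 0.13, adjusted p = 0.0157) and -0.56 (SE 0.12, adjusted p = 0.00844) without replicates 4 and 5. Scd1 averaged 9.54 ± 1.23 in Null and 11.87 ± 0.84 in WT controls. Its difference was -2.33 (SE 0.54, adjusted p = 0.0279), and -1.93 (SE 0.62, adjusted p = 0.116) without the 2 arrays, where it no longer passed, leaving 2 members lower (1.18% lower and 1.09% higher over all genes). Gpam was short of the threshold, -0.41 (SE 0.11, adjusted p = 0.0518), and -0.44 (SE 0.13, adjusted p = 0.0729) without the 2 arrays, although its groups did not overlap. The call of Fads2 was lost with 3 of 30 single arrays left out (highest limma adjusted p 0.062) and that of Scd1 with 6 (0.0941). That of Srebf1 held in every such run (highest 0.044).

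At 10 mg/kg neither group compared holds replicates 4 and 5 labelled WT 0 mg/kg, which enter only the spread of the fit. Here 10 members were lower and 1 higher in Null than in WT livers (7.73% lower and 6.24% higher over all genes). These 10 were Acaca, -0.56 (SE 0.11, adjusted p = 0.00108), Fasn, -0.72 (SE 0.18, adjusted p = 0.00935), Me1, -1.27 (SE 0.22, adjusted p = 0.000256), Scd1, -1.84 (SE 0.54, adjusted p = 0.0223), Elovl5, -0.57 (SE 0.097, adjusted p = 0.000201), Hsd17b12, -0.30 (SE 0.078, adjusted p = 0.011), Gpam, -0.71 (SE 0.11, adjusted p = 3.59e-05), Agpat3, -0.36 (SE 0.078, adjusted p = 0.00224), Lpin2, -0.55 (SE 0.17, adjusted p = 0.0284), and Mogat1, which was not above the filter value in any Null array and is left out of the 9 called of the other 30. The groups of Acaca, Fasn, Me1, Scd1, Elovl5, Hsd17b12, Gpam and Mogat1 did not overlap, nor did those of Elovl3, which did not pass (5.40% of all genes lower without overlap). Dgat2 was the higher one, averaging 12.78 ± 0.13 in Null and 12.47 ± 0.045 in WT livers, 0.31 (SE 0.1, adjusted p = 0.0426), and its call was lost with 8 single arrays left out, the highest adjusted p being 0.120. The call of Lpin2 was lost with 6 single arrays left out (highest adjusted p 0.107) and that of Scd1 with 2 (0.0959). The other probe set of Scd1 did not pass, -1.02 (SE 0.39, adjusted p = 0.0862). Pklr did not pass, but another of its probe sets was higher in Null livers, 0.67 (SE 0.16, adjusted p = 0.00625). The median difference was -0.16 for the members and 0.01 for all genes, and all 11 calls held with the 2 arrays left out of the fit (8.40% lower and 7.21% higher over all genes). None of the 6 members that rose in Null livers passed between the genotypes at 10 mg/kg. The differences of Acly, Acss2, Fads2, Elovl1, Srebf1 and Elovl6 were 0.35, -0.14, -0.22, -0.038, -0.13 and -0.62.

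The arrays that went against their label moved the WT results of many members. Replicates 4 and 5 both lay above replicates 1 to 3 for 14 of the 31 members (22.8% of all genes) and both below for 5 (25.9%). Without them 16 members (15 of the 30 other than Mogat1) were higher and 3 lower at 10 mg/kg in WT livers, against 14.3% higher and 15.5% lower over all genes, with a median change of 0.32 for the members and 0 for all genes. The members added were Acss2, Acacb, Slc25a1, Elovl1 and Pnpla3 as higher and Lpin1 and Dgat2 as lower, and all 12 called with every array stayed called. The other 12 members passed neither with nor without the 2 arrays, and without them their changes ran between -0.47 for Elovl3 and 0.25 for Acly. Of the 31 members, 10 (Mogat1 among them) were higher without overlap with all arrays (5.92% of all genes) and 17 without the 2 (16.5%).

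**Figure D4:**
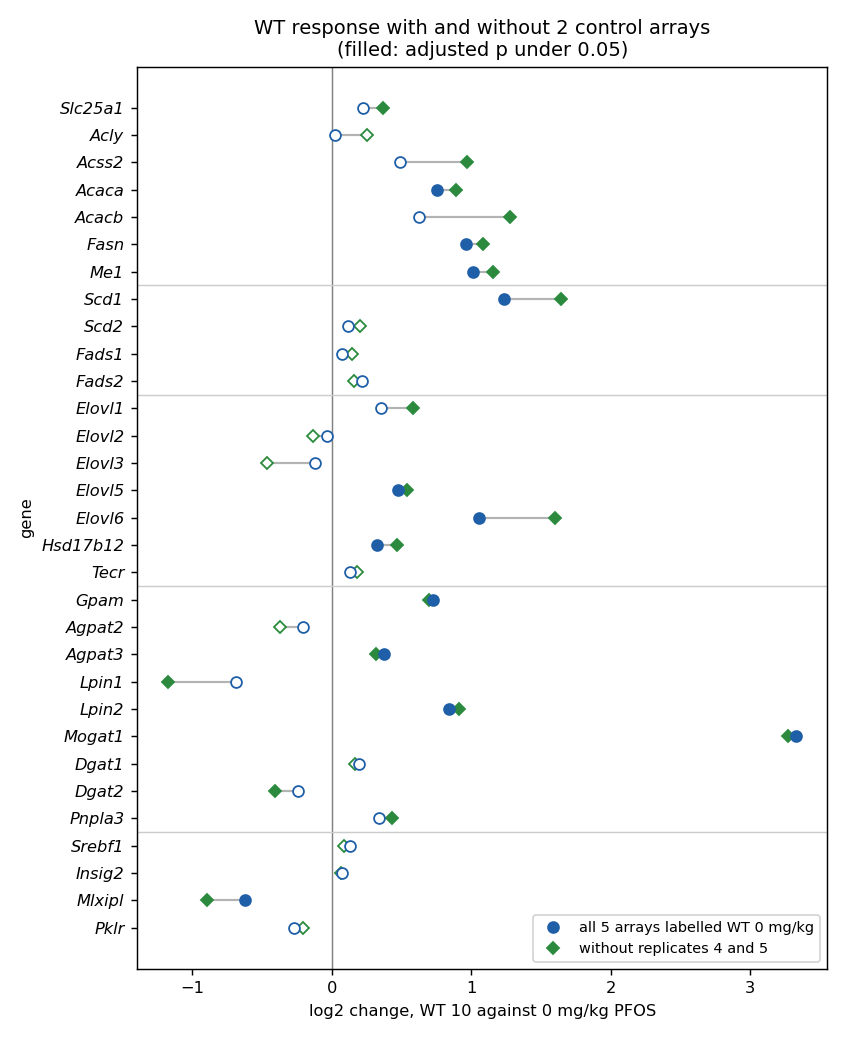
Log2 change at 10 against 0 mg/kg PFOS in WT livers for each of the 31 members (rows), with all 5 arrays labelled WT 0 mg/kg (blue circles) and without replicates 4 and 5 (green diamonds); filled symbols have an adjusted p under 0.05 in limma. Acss2, Acacb, Elovl6 and Lpin1 shift the most, and Gpam and Agpat3 hardly move; Mogat1 was kept only through treated WT arrays.

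Genes next to the members in these routes were counted from lists chosen by name. Over all genes tested, 7.59% were higher and 5.83% lower in WT livers at 10 mg/kg, and 4.11% and 5.02% in Null livers. Of 10 other enzymes of fatty acid synthesis, elongation and desaturation, 5 were higher and none lower in WT livers at 10 mg/kg. In Null livers 2 were higher, Fads6 and Hacd3, and none lower. Hacd3, a dehydratase of the elongation cycle, changed by 0.26 (SE 0.071, adjusted p = 0.0374) in Null livers and 0.61 (SE 0.075, adjusted p = 0.000139) in WT livers, and its relative Hacd1 by 0.37 (SE 0.14, adjusted p = 0.14) and 0.74 (SE 0.13, adjusted p = 0.00299), in the same order. Mcat, which loads malonyl groups in mitochondrial fatty acid synthesis, rose in WT livers by 0.30 (SE 0.078, adjusted p = 0.025). Of 12 other enzymes of triglyceride synthesis, 3 were higher in WT livers (Plpp2, 0.89 (SE 0.12, adjusted p = 0.000338), Gpd1, 0.44 (SE 0.073, adjusted p = 0.00201), and Gpat3, 0.47 (SE 0.11, adjusted p = 0.0123)) and 4 in Null livers (Gpd1l, 0.70 (SE 0.13, adjusted p = 0.00493), Plpp2, 0.47 (SE 0.11, adjusted p = 0.0149), Gpat4, 0.59 (SE 0.14, adjusted p = 0.0209), and Gpat3, 0.43 (SE 0.11, adjusted p = 0.0238)), and none was lower. Gpat3 and Gpat4 are the acyltransferases of the endoplasmic reticulum that start the route beside Gpam, and Gpd1 makes glycerol-3-phosphate. Of 19 other regulators none passed in WT livers at 10 mg/kg with all arrays. In Null livers Thrsp, a SREBP-driven gene long used as a marker of lipogenesis, rose by 1.25 (SE 0.26, adjusted p = 0.0095), against 0.72 (SE 0.50, adjusted p = 0.367) in WT livers and 1.33 (SE 0.50, adjusted p = 0.0684) there without replicates 4 and 5, and Ppara itself fell by 0.39. Of 9 genes of glycolysis and NADPH supply, Pgd, of the pentose phosphate route, rose by 1.00 (SE 0.20, adjusted p = 0.00871) and Idh1, a cytosolic NADPH source, by 0.35 (SE 0.083, adjusted p = 0.0199) in Null livers, where Khk, the fructose kinase, fell by 0.34. In WT livers with all arrays Gckr, the regulator of glucokinase, fell by 0.50 and no other gene of that list passed. Without replicates 4 and 5 labelled WT 0 mg/kg, 7 of the 10 enzymes of fatty acid synthesis were higher in WT livers. Of the 12 of triglyceride synthesis 5 were higher. Of the 9 genes of glycolysis and NADPH supply, 5 were higher (Idh1, Pgd, Taldo1, Tkt and Mdh1) and 2 lower (Gckr and Khk). Of the 19 regulators Pparg was higher and Rxra lower. That fit of WT livers at 10 mg/kg called 14.3% of all genes higher and 15.5% lower. The genes of these lists named above as passing in WT livers all passed.

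Markers of liver cell types were read beside these changes. With all arrays, 7.59% of all genes were higher and 5.83% lower in WT livers at 10 mg/kg. In Null livers the shares were 4.11% and 5.02%. Of 9 hepatocyte markers, 4 (Tat, Cps1, Hnf4a and Ass1) were lower in WT livers at 10 mg/kg, the mean over the list being 12.04 to 12.17 at 10 mg/kg and 12.33 to 12.41 in the arrays labelled WT 0 mg/kg, and the summed linear signal 78500 to 82400 and 84000 to 91000. None of the 9 passed in Null livers, where the mean was 12.26 to 12.49 at 10 mg/kg and 12.27 to 12.45 at 0 mg/kg. Of 12 Kupffer cell and macrophage markers, 3 (Cd5l, C1qa and C1qc) were lower in Null livers at 10 mg/kg and none passed in WT livers, with medians of -0.34 and -0.33. The summed signal of that list was 5210 to 7730 at 10 mg/kg and 7050 to 9340 at 0 mg/kg in Null livers, and 3850 to 6740 at 10 mg/kg and 4690 to 9970 in those labelled 0 mg/kg in WT livers. Of 10 endothelial markers 2 (Pecam1 and Lyve1) were higher in Null livers, and of 8 stellate and fibroblast markers Dcn was lower in WT livers and Rgs5 in Null livers. None of the 3 cholangiocyte and 5 lymphocyte markers read passed at 10 mg/kg in either genotype. Only 2 of 8 adipocyte markers were above the filter, of which Fabp4, a fatty acid binding protein also known as a PPAR target, was higher in WT livers at 10 mg/kg, 0.71 (SE 0.15, adjusted p = 0.0102), with Adipoq, Plin1 and Lep not above it. Without replicates 4 and 5 labelled WT 0 mg/kg, 3 of 9 hepatocyte markers were lower in WT livers at 10 mg/kg. These were Apoa1, Cps1 and Hnf4a. Lower too were 1 of 12 markers for Kupffer cells and macrophages, 4 of 10 for endothelial cells and 4 of 8 for stellate cells and fibroblasts. Fabp4 was the only marker that was higher. Over all genes 15.5% were lower and 14.3% higher in that fit. The part of these cell types in the results was not tested.

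The members had 69 annotated probe sets, of which 62 were kept, and 11 members had a single one. Of the 12 members called in WT livers at 10 mg/kg, 9 had several probe sets, and in all 9 at least 2 passed in the same direction. Of the 7 called in Null livers, 5 had several, and in 4 of these at least 2 passed, the exception being Elovl6 with 1 of 3. No called member had probe sets that passed in opposite directions.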

How the data were processed

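Total RNA of the left liver lobe of each mouse was labelled with biotin and hybridised to an Affymetrix mouse whole-genome array, 30 arrays in all, and the labels name no processing batch. The deposited values are log2 signals per probe set, background adjusted, quantile normalised and summarised by the authors with RMA; the precision rests on 5 arrays a group. Of 45101 probe sets, 34945 carried 1 gene in the platform annotation, 932 several and 9211 none. For 34754 probe sets the symbol was looked up through the Entrez identifier, whether or not it changed, and 64 control probe sets were left out. The weak signal filter kept 24069 probe sets, those exceeding 5.65 (the overall median) on 5 arrays or more. limma 3.58.1 in R 4.3.3 was fitted per strain across dose, after the one-way design of the methods, and over all 30 arrays for differences in response and between genotypes. Benjamini-Hochberg adjustment ran over all kept probe sets, and an adjusted p under 0.05 was called passed. A gene was read by its kept probe set with the smallest F-test p across dose (12156 genes), as the methods resolved duplicates by smallest p, which favours calls for members and background alike.

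The members and lists were chosen with earlier results of these data known. Values per array are given for the 16 members with the smallest p among those called in a dose comparison or difference in response. Of the other pathway genes called, only some are named. Alternatives were other filters (none, or at least 10 arrays), another probe set, scaling, spread model, groups in the fit, a replicate block, the t-test of the methods, each array left out in turn, and, chosen after the data were seen, leaving out the 2 arrays that went against their label. The procedure was tested on simulated data with 200 changed genes. Promoter windows came from RefSeq (GRCm38.p6).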

Additional observations from a re-analysis of the deposited data

Results flagged for a closer look

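An array stood far from the other 4 of its group in 9 of the 186 member and group combinations examined, and chance alone marks about 1 in 20. In Null livers at 0 mg/kg, replicate 1 read 8.76 for Acacb against 8.26 to 8.40 in the others, 9.31 for Fasn against 9.69 to 9.80, and 10.78 for Elovl2 against 11.23 to 11.37. Replicate 5 of the same group read 12.63 for Elovl5 against 12.86 to 12.93. In Null livers at 3 mg/kg, replicate 4 read 9.04 for Pklr against 9.49 to 9.66. In Null livers at 10 mg/kg, replicate 4 read 7.87 for Elovl3 against 10.50 to 10.68. Among the arrays labelled WT 0 mg/kg, replicate 2 read 5.88 for Scd2 against 6.40 to 6.56, and replicate 4, which went against its label, read 9.49 for Gpam against 9.63 to 9.67. In WT livers at 3 mg/kg, replicate 2 read 9.02 for Insig2 against 9.97 to 10.24.

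The response to 10 mg/kg differed between the genotypes, by the interaction test over all 30 arrays, for Agpat3 (-0.50, Null minus WT on the log2 scale). It was 1 of the 30 members other than Mogat1, a share near the 2.97% of all genes that were lower. The limma adjusted p of its other probe sets was 0.0357, 0.0782 and 0.07. Mogat1 also met the threshold, with a measured difference of -3.24, but its probe set was kept only through treated WT arrays and lay below the filter value in every Null array and in all 5 labelled WT 0 mg/kg, so that value is a description and no test of a difference.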

How the results depend on the processing

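No change of a called member reversed its direction under any alternative run. In the alternatives other than single arrays left out, the members' medians moved by less than the within-group SD of their mean per array. The sign of the medians was not judged. Of the changes of called members, 391 kept their side of the threshold and 26 lost it under alternatives other than single arrays left out, and 808 kept it and 62 lost it with 1 array left out; Elovl6 and Mlxipl lost it most often. The count of members called in the difference in response to 10 mg/kg was 1 with the stricter filter, which drops Mogat1. With the other choice of groups in the fit it was 1 in WT livers at 3 mg/kg, 6 in Null livers at 3 mg/kg, 12 in Null livers at 10 mg/kg and 1 for Null against WT at 0 mg/kg. The methods' t-test at their unadjusted threshold called 1 in WT livers at 3 mg/kg and 0 after Benjamini-Hochberg adjustment. At 10 mg/kg it called 6 in Null livers and 10 in WT livers, with the same counts after adjustment. Without the 2 arrays that went against their label the counts were 2 in WT livers at 3 mg/kg, 19 at 10 mg/kg and 11 between 10 and 3 mg/kg. Apart from the fit without these 2 arrays, the share of all genes called was not taken in the alternatives, here and below. A changed count there is therefore not read as a result about the members. The causes were not tested.

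Samples with the same replicate number did not deviate together (correlations of -0.23 to 0.32, not above 0.1 in every pair), so the numbers were not taken as pairs. With the replicate number as a block, 5 members were called for Null against WT at 0 mg/kg in place of 3, and Mlxipl in WT livers and Elovl6 in Null livers lost their calls (limma adjusted p = 0.0526 and 0.055); the other counts stayed within 1.5 times.

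With each array left out in turn, members called ranged from 2 to 5 in Null livers at 3 mg/kg, 4 to 11 at 10 mg/kg (11 without replicate 4 at 10 mg/kg, 4 without replicate 5) and 0 to 0 between those doses. They ranged from 0 to 1 in WT livers at 3 mg/kg, 9 to 15 at 10 mg/kg and 5 to 7 between those doses. For the difference in response the range was 0 to 2 at 3 mg/kg and 2 to 4 at 10 mg/kg, and for Null against WT 1 to 6 at 0 mg/kg and 8 to 13 at 10 mg/kg. Other counts that moved by over 1.5 times were 4 or 5 in Null livers at 3 mg/kg without Null 10 mg/kg replicate 1 (5), 3 (4) or 4 (4), and 1 in WT livers at 3 mg/kg without replicate 2 of that dose. For Null against WT at 0 mg/kg the count was 6 without Null 0 mg/kg replicate 1, 1 without Null 0 mg/kg replicate 2 or WT 0 mg/kg replicate 1, and 5 without Null 10 mg/kg replicate 1 or 4 or WT 0 mg/kg replicate 2. For the difference in response at 3 mg/kg it was 1 without WT 3 mg/kg replicate 2, Null 3 mg/kg replicate 3 or Null 10 mg/kg replicate 4, and 2 without WT 0 mg/kg replicate 2; at 10 mg/kg it was 4 without WT 3 mg/kg replicate 2. Mogat1, which is included in these counts, and Pnpla3 were read near background. The counts with single arrays left out have no share of all genes beside them, so they show only how far the calls moved.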
